A study of Mus musculus with 36 samples.

Results

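The proteins of the mitochondrial ribosome were examined as a gene family in RNA-seq libraries of visceral white adipose tissue (visWAT, epididymal adipose tissue in the labels) and liver of 18 male mice. The family was taken as every protein-coding row of the deposited gene table whose symbol is Mrpl or Mrps followed by a number, which gave 78 genes of 56748 rows, 21970 of them protein coding. Of the 78, 49 are Mrpl genes and 29 are Mrps genes. By the structure of the ribosome, 51 belong to the large subunit and 26 to the small subunit, and Mrps36 to neither, since its product is a subunit of the 2-oxoglutarate dehydrogenase complex. The name therefore differs from the place of the protein in a few cases, such as Mrps30 and Mrps18a, which sit in the large subunit. The members lie on 17 chromosomes, and 48 have a bacterial homologue.

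All mice carried loxP-flanked Mlkl alleles on a C57BL/6J background. Mlkl Adi-KO mice also carried an Adipo-Cre transgene that deletes Mlkl in mature adipocytes, and WT mice were littermates without Cre. Mice were 16 weeks old when they were put on normal chow diet (NCD, 4 mice per genotype) or high-fat diet (HFD, 5 mice per genotype) for 16 weeks. Fat and liver came from the same animals, which gave 8 groups and 36 libraries, 1 per mouse and tissue.

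The mitochondrial ribosome translates the few proteins encoded by mitochondrial DNA, all of them core subunits of the respiratory chain and of ATP synthase. Its RNA is mitochondrial, but all its proteins are encoded in the nucleus, made in the cytosol and imported. The other subunits of the respiratory chain are nuclear too. The members and the nuclear respiratory chain genes are thus both needed to build the same complexes. Both sets were followed side by side in fat and liver.

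Promoters of 3 members are shown, 2 for their change on HFD and 1 for its sequence. Mrps15, the member with the largest fall in WT visWAT on HFD, Mrps27, the member with the largest fall in WT liver on HFD, and Mrpl32, whose promoter holds several copies of the NRF1 element, an element known from nuclear genes for mitochondria, are given 5′ to 3′ on the strand of the gene, from 120 bases before to 30 bases after the start. Sequences are from RefSeq (table build GRCm38.p6), and each matched GRCm39 once, at chr4:125940601-125940750 on the plus strand for Mrps15, chr13:99481174-99481323 on the plus strand for Mrps27 and chr13:14787593-14787742 on the minus strand for Mrpl32. Capitals mark the GC box (GGGCGG, or CCGCCC on the other strand) in Mrps15 and Mrpl32, the ETS element (CCGGAAGT or ACTTCCGG) and the YY1 element (AAGATGGC) in Mrps27, and the NRF1 element (GCGCATGC or GCATGCGC, which overlap where they follow each other) in Mrpl32.
Mrps15: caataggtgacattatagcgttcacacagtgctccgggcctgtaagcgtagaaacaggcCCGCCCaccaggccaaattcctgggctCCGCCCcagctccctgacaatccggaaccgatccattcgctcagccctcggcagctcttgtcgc
Mrps27: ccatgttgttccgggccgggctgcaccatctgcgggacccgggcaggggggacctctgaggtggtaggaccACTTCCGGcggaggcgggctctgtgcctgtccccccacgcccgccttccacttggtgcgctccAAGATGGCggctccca
Mrpl32: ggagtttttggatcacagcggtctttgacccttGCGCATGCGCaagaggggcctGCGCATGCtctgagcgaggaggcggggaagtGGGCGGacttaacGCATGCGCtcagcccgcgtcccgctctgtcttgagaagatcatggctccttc

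A promoter of 300 bases around the start was matched for 69 of the 78 members, among 27025 promoters in the same table, and both strands were searched. The NRF1 letters were found in 8 of 69 members (11.6%) and in 2.80% of all promoters. The ETS letters were found in 11 members (15.9%, against 4% of all), and the YY1 letters in 12 (17.4%, against 2.88%). At least 1 of these 3 elements was present in 28 members (40.6%) and in 9.15% of all promoters. The GC box was present in 49.3% of members against 35.9% of all, CCAAT in 39.1% against 37.9%, and TATAAA in 5.80% against 14.2%. The median GC content was 58.3% in members and 52.7% in all. These letter matches describe the windows only, and binding was not measured. Some members also share a start region with a neighbour. Of 78 members, 25 start within 500 bases of the start of a protein-coding gene on the other strand. The share over all protein-coding genes was not computed, so this is not a trait shown for the family. Mrps11 and Mrpl46 start next to each other in this way, as do Mrpl36 and Ndufs6, a complex I subunit, and Mrps12 and Sars2, the mitochondrial seryl-tRNA synthetase.

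Reads on genes numbered 20875463 to 30322171 per library. Of these, 55061 to 84811 per visWAT library and 44466 to 58669 per liver library fell on the members, with a median of 838 and 583.5 reads per member and library. The unit throughout is FPKM (fragments per kilobase of gene, scaled to a library size set by the authors), which allows levels of different genes to be compared. Mlkl, the deleted gene, was at 4.58 to 6.28 FPKM in visWAT of HFD-fed WT mice and at 2.32 to 2.72 in HFD-fed Mlkl Adi-KO mice. On NCD, the library labelled WT of mouse 182 had 2.29 FPKM of Mlkl, within the knockout range of 1.96 to 2.49. In the visWAT library of mouse 183, also WT on NCD, 16.6% of reads came from seminal vesicle genes. Counts and medians of the members that use these libraries were also computed without both. Only these visWAT libraries were left out in those fits, and the liver libraries of both mice were kept. The liver library of mouse 182 also stood apart, with macrophage markers summing to 125 FPKM and Mlkl at 4.19 FPKM. In the livers of mice 165, 180 and 183, these markers summed to 46.2, 36.2 and 42.0 FPKM. Mlkl was there at 2.44, 2.18 and 2.89 FPKM. The defining markers of mature adipocytes and of hepatocytes were present in every visWAT and every liver group, respectively.

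The 78 members spanned more than an order of magnitude in transcript level, and most were higher in liver than in fat in deposited FPKM, an order that turned for many when libraries were set to 1 total (given with the tissue comparison). The median of the members' mean levels was 9.79 FPKM in visWAT and 12.9 FPKM in liver (n = 18 libraries each), and 17 members had a higher mean in visWAT. In visWAT the highest were Mrps21 (52.4 ± 7.66 FPKM, SD, n = 18), Mrpl34 (51.5 ± 9.60), Mrpl12 (43.5 ± 10.8), Mrpl54 (37.4 ± 9.42) and Mrpl27 (37.3 ± 6.14). These neighbours in rank differed by less than their SD. In liver Mrpl12, the flexible stalk protein that recruits translation factors, led with 88.7 ± 6.98 FPKM (n = 18), followed by Mrpl34 (77.8 ± 5.85), Mrpl14 (64.9 ± 11.99), Mrpl2 (49.4 ± 6.23) and Mrps21 (48.5 ± 3.74). At the other end Mrpl47 (1.91 ± 0.463 FPKM) and Mrpl19 (2.08 ± 0.306) were lowest in visWAT, and Mrps25 (2.001 ± 0.210) and Mrpl33 (2.71 ± 0.256) in liver. The highest member was 27.4 times the lowest one above 0 in visWAT and 44.3 times in liver.

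Mrpl53 was listed at 0 in all 36 libraries. Its span in the table overlaps Gm42688, a protein-coding gene on the same strand, at 0.261 ± 0.0678 FPKM in visWAT and 0.300 ± 0.0892 in liver (n = 18 each). How reads on overlapping genes were counted is not given in the sources used here, so the 0 of Mrpl53 cannot be read as absence, and 77 members were tested. By the spans in the table, 25 members overlap another protein-coding gene, 4 on the same strand and 22 on the other strand.

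The order of levels was much alike in both tissues, with a Spearman coefficient of 0.881 across the 78 members, which share their libraries. Mrps6, a protein of the small subunit, stood apart from this order (31.1 ± 7.18 FPKM in visWAT and 4.96 ± 0.869 in liver, n = 18 each). The median coefficient of variation over members was 7.56% in visWAT of NCD-fed Mlkl Adi-KO mice and 17.4% in NCD-fed WT mice, the group that holds mice 182 and 183.

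**Figure D1:**
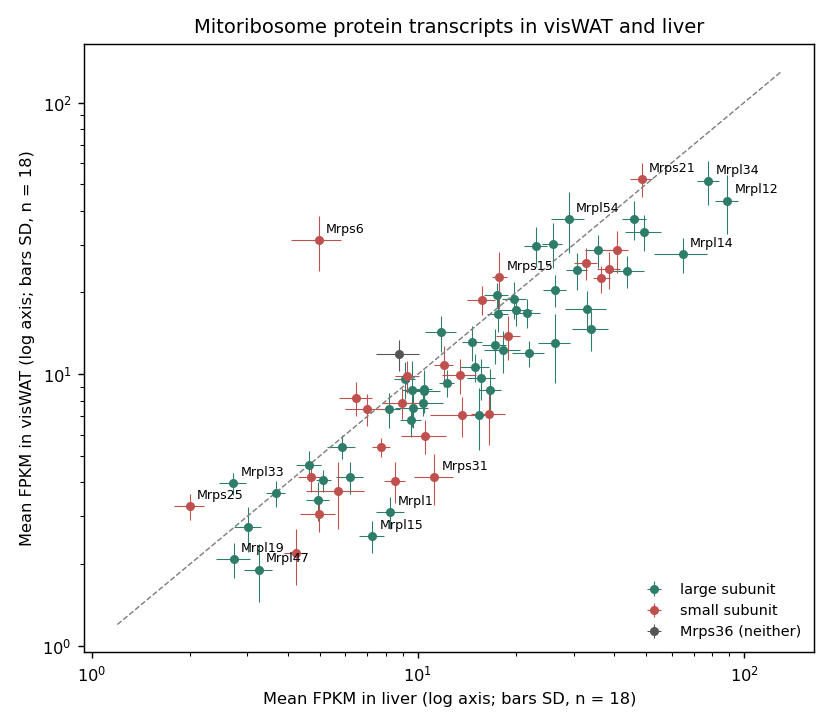
Mean FPKM of each of 77 members in liver (x axis, log scale) and visWAT (y axis, log scale), with SD bars over 18 libraries, and the line of equal level. On this deposited scale most members lie below the line (on the TPM scale more members are higher in visWAT), the set keeps its order between tissues, and Mrps6 lies far above the line at 31.1 FPKM in visWAT against 4.96 in liver.

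Across the 4 fat groups the members and the nuclear respiratory chain had the same lowest group on the deposited scale. Between diets in Mlkl Adi-KO visWAT their means moved in opposite directions, but their medians did not. The sum of the members in visWAT was 1136 ± 171 FPKM in NCD-fed WT mice (n = 4), 1061 ± 49.7 in NCD-fed Mlkl Adi-KO mice (n = 4), 998 ± 59.1 in HFD-fed WT mice (n = 5) and 1189 ± 151 in HFD-fed Mlkl Adi-KO mice (n = 5). In liver the same sums were 1489 ± 53.2, 1505 ± 84.7, 1378 ± 43.0 and 1393 ± 78.9 FPKM. In visWAT the sum of 79 nuclear respiratory chain genes was 7037 ± 2017, 6363 ± 347, 4826 ± 160 and 6016 ± 892 FPKM in the same order of groups. HFD-fed WT visWAT was the lowest of the 4 fat groups in both sets. From NCD to HFD in Mlkl Adi-KO visWAT the mean of the members was higher and that of the chain lower, and no test was made on these sums. The chain overlapped between these diets, at 6015 to 6780 FPKM on NCD and 4880 to 7018 on HFD. Its median was 6328 on NCD and 6417 on HFD. The low HFD values came from mice 152 and 153, at 4880 and 5293 FPKM. Without mice 182 and 183, NCD-fed WT visWAT was at 988 and 1100 FPKM for the members and at 5840 and 7162 FPKM for the chain.

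The ratio of chain to ribosome transcripts was lower on HFD than on NCD in fat, and its group means lay close together in liver. Chain transcripts were 6.12 ± 0.921 times the members in visWAT of NCD-fed WT mice and 5.999 ± 0.138 times in NCD-fed Mlkl Adi-KO mice. On HFD the ratio was 4.84 ± 0.132 in WT and 5.05 ± 0.199 in Mlkl Adi-KO visWAT. In liver it lay between 6.15 ± 0.150 and 6.39 ± 0.231 in the 4 groups. A ratio within a library does not depend on how libraries are scaled. All 5 ratios of HFD-fed Mlkl Adi-KO mice, 4.78 to 5.33, were below all 4 of NCD-fed Mlkl Adi-KO mice, 5.86 to 6.18. For WT the ranges touched, with 4.69 to 5.05 on HFD and 4.95 to 7.11 on NCD, where the low end came from mouse 183. The NCD-fed WT mice other than 182 and 183 were at 5.91 and 6.51. Across the 18 visWAT libraries, the mean log2 level of the members and that of the chain had a Pearson coefficient of 0.882, and 0.841 across the 18 liver libraries. Both sets share the scaling of each library, so these coefficients are descriptions.

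**Figure D2:**
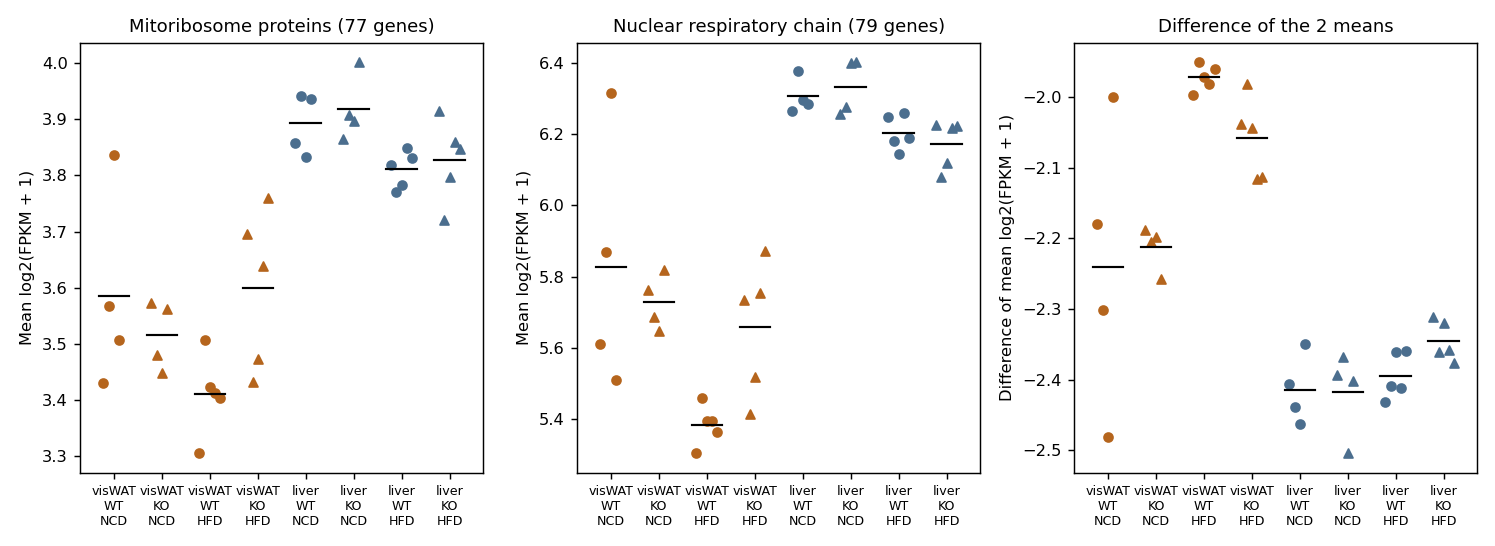
Mean log2(FPKM + 1) per library of 77 members (left), of 79 nuclear respiratory chain genes (middle) and the difference of both (right), by tissue, genotype and diet, with a line at the group mean. In visWAT the difference was −2.24 ± 0.20 and −2.21 ± 0.03 on NCD (WT and Mlkl Adi-KO, mean ± SD) and −1.97 ± 0.02 and −2.06 ± 0.06 on HFD, and in liver all groups lay near −2.4.

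In visWAT of WT mice, HFD went with lower FPKM of 21 of 77 members and higher FPKM of 1 at an adjusted p under 0.05 (limma, Benjamini-Hochberg over all genes tested), a direction that turned on another scale, as given next. Of all 14161 genes tested, 15.8% were lower and 21.9% higher. The median log2 fold change was −0.19 over the members and −0.01 over all genes. Without mouse 182 the median of the members was −0.10, and without both mice −0.08. On the same test 38 of 79 nuclear chain genes were lower and 1 was higher, with a median of −0.45. Without mice 182 and 183 it was 55 and 3, with a median of −0.39. These chain values are on the deposited scale, and those on the other scale are not given here. Small subunit members were called lower in 10 of 26 cases and large subunit members in 11 of 50, with nearly equal medians, and members with a bacterial homologue in 11 of 48 against 10 of 29 without one.

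The FPKM of a library summed to 227793 to 241374 in HFD-fed WT visWAT and to 243503 to 564718 in NCD-fed WT visWAT, the highest in mouse 183. When every library was set to 1 total (the TPM scale), the median of all genes moved to 0.34 and that of the members to 0.24, and 1 member was called, as higher. When mice 182 and 183 were also left out, an alternative chosen after seeing the data, 14 members were called higher and 9 lower, with a median of 0.04 against 0.10 over all genes. On the deposited scale without these mice, 21 were lower and 4 higher. Relative to the median of all genes that of the members was lower on these 3 scales (−0.18 as deposited, −0.10 on the TPM scale and −0.06 on the TPM scale without both mice). As a share of all reads on genes, members took 0.271% ± 0.0375 on NCD and 0.273% ± 0.0141 on HFD. The NCD-fed mice other than 182 and 183 were at 0.275% and 0.290%, within the range of 0.255% to 0.294% on HFD.

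The 9 members called lower both as deposited and on the TPM scale without both mice were Mrpl9, Mrpl49, Mrps5, Mrps15, Mrps16, Mrps27, Mrps30, Mrps31 and Mrps35. Mrps15, which binds near the platform of the small subunit, had the largest change. Its level was 26.8, 28.7, 31.97 and 22.6 FPKM in the 4 NCD-fed WT mice, and 15.2, 17.8, 17.8, 16.1 and 17.8 FPKM in the 5 HFD-fed WT mice. All HFD-fed mice were below all NCD-fed mice. The log2 fold change was −0.66 ± 0.10 (SE), with an adjusted p of 0.000894 in limma and a two-sided exact permutation p of 0.0159, the smallest that 4 against 5 mice can give. On the TPM scale with all mice the same change was −0.21, with an adjusted p of 0.59 in limma. Mrps31 fell from 5.12 ± 0.876 to 3.36 ± 0.183 FPKM (log2 fold change −0.48 ± 0.09), and Mrpl9 from 14.1 ± 2.53 to 9.97 ± 0.464 FPKM (−0.45 ± 0.10). Mrpl50 had a log2 fold change of −0.54 ± 0.19 and an adjusted p of 0.0537 in limma, with 26.8 FPKM in mouse 182 and 12.7, 15.1 and 12.8 in the other NCD-fed WT mice.

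Mrpl54 was the member called higher. It was at 27.2, 30.5, 28.7 and 36.2 FPKM on NCD and at 33.4, 43.3, 41.0, 39.3 and 35.9 FPKM on HFD in WT visWAT. The groups overlapped through mouse 183, and the log2 fold change was 0.32 ± 0.11, with adjusted p-values of 0.0415 in limma, 0.0869 in edgeR and 0.0486 in DESeq2. Mrps6 and Mrps23 had log2 fold changes of 0.34 ± 0.16 and 0.21 ± 0.12 and were not called, but without mice 182 and 183 Mrps6 (0.40, adjusted p = 0.0115 in limma), Mrps23 (0.36, adjusted p = 0.0169 in limma) and Mrps33 were called higher.

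The transcript levels of cell type markers in the fat differed between these groups. All 8 macrophage markers were higher on HFD in WT visWAT, and their summed level was 170 to 267 FPKM on NCD and 1720 to 2506 FPKM on HFD. Of 8 mature adipocyte markers, 5 were lower and 1 was higher, with a summed level of 9824 to 21204 FPKM on NCD and 4627 to 5935 FPKM on HFD. On HFD all 5 fibroblast markers were also higher, and 2 of 5 endothelial markers were lower. None of these markers was at 0 in either group. In bulk tissue, fewer cells of a type and less RNA per cell cannot be told apart, and the part of the markers in the members' change was not tested.

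In visWAT of Mlkl Adi-KO mice, HFD went with higher FPKM of 15 members and lower FPKM of 7 (limma, adjusted p under 0.05). Among all 14026 genes tested, 23.3% were higher and 20.3% were lower, so neither share of the members, 19.5% and 9.09%, exceeded that of all genes. The median was 0.14 over the members, 0.01 over all genes and −0.07 over the nuclear chain, of which 2 genes were higher and 12 lower. Without mouse 157 the median of the members was 0.08. The TPM scale gave 18 higher and 9 lower. Without mouse 197 of the NCD group 5 members were higher and 7 lower, and without mouse 199 it was 7 and 3.

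The highest was Mrpl54, at 29.5, 25.6, 30.1 and 29.9 FPKM on NCD and at 51.8, 40.4, 40.3, 48.8 and 60.7 FPKM on HFD. Every HFD-fed mouse was above every NCD-fed mouse, with a log2 fold change of 0.72 ± 0.12 and an adjusted p of 0.00216 in limma. Mrps6 followed (27.7 ± 2.80 to 38.4 ± 7.42 FPKM, log2 fold change 0.44 ± 0.13), and then Mrps33 (9.16 to 12.7 FPKM, 0.44 ± 0.09). Among the other risers were Mrpl27 (34.1 to 44.8 FPKM, 0.37 ± 0.09) and Mrpl43 (6.51 to 8.66 FPKM, 0.36 ± 0.08), both of the large subunit.

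The 7 members that fell in Mlkl Adi-KO visWAT were Mrpl3, Mrpl47, Mrps5, Mrps15, Mrps30, Mrps31 and Mrps35. All 7 (100%) were also among the 21 that were lower in WT visWAT, of which they are 33.3%, and the diet comparisons of the genotypes share no library. Over all genes, 1434 were lower in both, which is 50.3% of the 2853 lower in Mlkl Adi-KO visWAT and 64.0% of the 2239 lower in WT visWAT. On the TPM scale no member was lower in WT visWAT, so none was shared. On the TPM scale without mice 182 and 183, 6 members were lower in both genotypes, 66.7% of the 9 in each, and Mrpl3 and Mrpl47 were not among them. Mrps15 went from 31.4, 24.9, 25.4 and 29.2 FPKM on NCD to 20.9, 18.3, 18.5, 21.2 and 25.7 FPKM on HFD in these mice. Only mouse 157, at 25.7, reached into the NCD range, and the log2 fold change was −0.39 ± 0.11, with an adjusted p of 0.0191 in limma. Mrpl47 (2.27 ± 0.209 to 1.62 ± 0.131 FPKM, −0.32 ± 0.06) and Mrps5 (4.80 ± 0.320 to 3.66 ± 0.324 FPKM, −0.32 ± 0.07) did not overlap between diets. Mrpl54 was the member called higher in both genotypes. Of 8 macrophage markers, 7 were higher on HFD in Mlkl Adi-KO visWAT, and of 8 mature adipocyte markers 2 were higher and 3 lower. Their part in the members' changes was not tested.

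**Figure D3:**
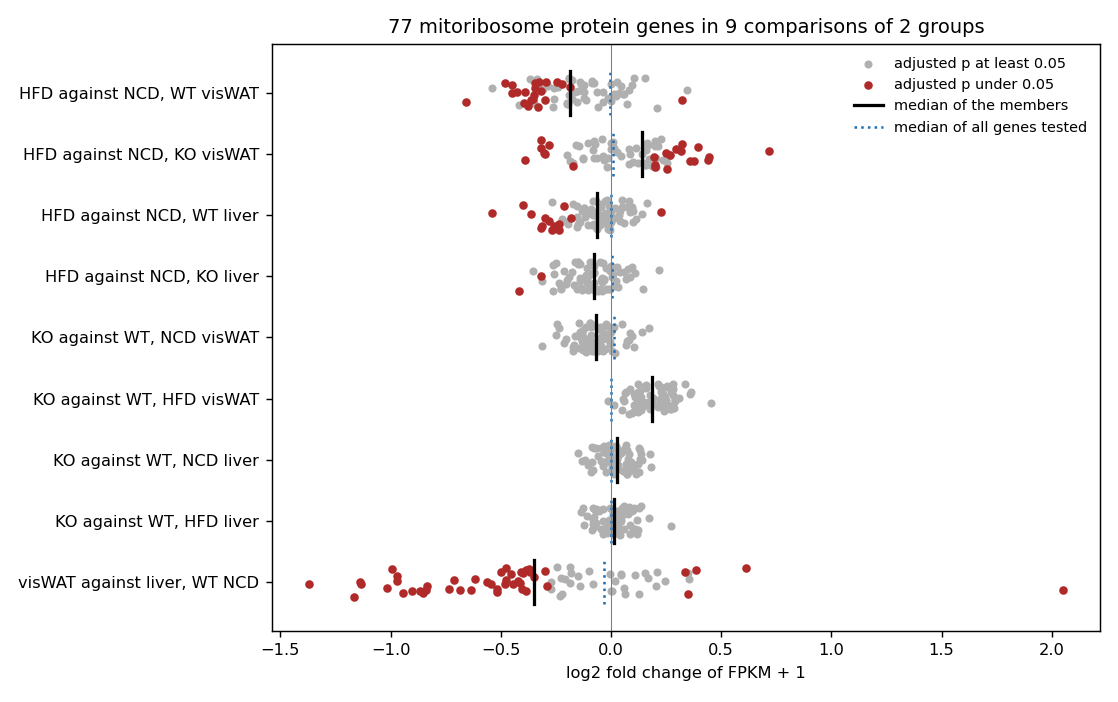
Log2 fold change of FPKM + 1 (x axis) for each of 77 members in 9 comparisons of 2 groups, red at an adjusted p under 0.05, with the median of the members (black line) and of all genes tested (dotted line). The values are on the deposited scale, where the median was −0.19 in WT visWAT and −0.35 for visWAT against liver, both of which turn positive on the TPM scale.

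Between genotypes on HFD, almost every member had a higher mean in Mlkl Adi-KO visWAT, and none passed the adjusted threshold. A positive log2 fold change was seen in 76 of 77 members, against 49.8% of all 13963 genes tested, with a median of 0.18 over the members and 0.00 over all genes. At an unadjusted p under 0.05 there were 40 members in limma, against 21.5% of all genes. The call rate over all genes was 0.0215% at an adjusted p under 0.05, and edgeR called 0 members and DESeq2 called 2, Mrpl27 and Mrps34. Nuclear chain genes were alike, with a positive value in 77 of 79, 65 at an unadjusted p under 0.05 and a median of 0.27. On the TPM scale the median of the members was 0.09, which is 0.17 above that of all genes.

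For 6 members all 5 Mlkl Adi-KO mice were above all 5 WT mice, as was so for 1.42% of all genes tested. They were Mrpl27, Mrpl43, Mrps7, Mrps15, Mrps25 and Mrps34, each with an adjusted p of 0.221 in limma. Their two-sided exact permutation p of 0.00794 is the smallest that 5 against 5 mice can give. It follows from the separation by which they were picked and adds no support. Mrps34, a small subunit protein known for its role in the stability of that subunit, was at 10.7, 11.7, 10.9, 10.6 and 11.6 FPKM in HFD-fed WT mice and at 18.5, 12.1, 14.4, 16.4 and 17.4 FPKM in HFD-fed Mlkl Adi-KO mice. Its log2 fold change was 0.45 ± 0.10, with an adjusted p of 0.00860 in DESeq2. The span of Mrps34 overlaps Nme3 on the same strand, which was listed at 0 in all libraries. The lowest values among members were those of Mrps23 (−0.01 ± 0.08), Mrpl19 (0.01 ± 0.08) and Mrps2 (0.05 ± 0.06). Across the 77 members, the fold change had a Spearman coefficient of 0.66 with the mean level and −0.54 with gene length. Fold changes of FPKM + 1 understate changes of low members, and the part of this in the coefficients was not tested. Members share libraries and are not independent, so these are descriptions.

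The 5 HFD-fed Mlkl Adi-KO mice were not alike. The summed level of the members was 1283, 1021, 1053, 1213 and 1374 FPKM in mice 151, 152, 153, 156 and 157. In the same order the mature adipocyte markers summed to 9600, 5610, 5246, 11760 and 11387 FPKM, and the macrophage markers to 1397, 2126, 2269, 704 and 636 FPKM. Mice 152 and 153, lowest in the members, were also lowest in adipocyte markers and highest in macrophage markers, within the ranges of HFD-fed WT mice (913 to 1077 FPKM for the members). Neither marker list had a gene called between genotypes on HFD, with medians of 0.44 for adipocyte and −0.90 for macrophage markers, and their part in the difference was not tested.

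On NCD no member was called between genotypes in visWAT by limma, edgeR or DESeq2, nor at an unadjusted p under 0.05 in limma (0 of 77). Over all genes tested 0.0% passed the adjusted and 3.75% the unadjusted threshold. The median of the members was −0.07 as deposited, 0.25 on the TPM scale and 0.01 without mice 182 and 183. Mrpl50 was lowest (−0.32 ± 0.22) and Mrps6 highest (0.17 ± 0.18). For the interaction of genotype with diet in visWAT, 0 members were called by any of these 3 tools, and 0.0% of all genes were. A positive interaction was seen in 74 of 77 members on the deposited scale, against 48.2% of all genes, with a median of 0.27 that turned to −0.17 on the TPM scale (0.18 above that of all genes there), and 23 had an unadjusted p under 0.05, against 13.2% of all. Without mice 182 and 183 the median was 0.17 and 5 members had such a p. Mrps34 was highest (0.60 ± 0.15, adjusted p = 0.314 in limma), followed by Mrps7 (0.51 ± 0.18) and Mrpl50 (0.50 ± 0.22).

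In liver the diet effect on the members was small and mostly downward. In WT liver 13 of 77 members were lower on HFD and 1 was higher (limma, adjusted p under 0.05), against 12.1% and 13.2% of all 13330 genes tested. The median was −0.06 over the members and −0.10 over the nuclear chain, with 10 of 79 chain genes lower and 0 higher. The TPM scale gave 9 lower and 2 higher members. Leaving out each mouse in turn gave 10 to 17 called members, the most without mouse 182.

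Mrps27, a pentatricopeptide repeat protein of the small subunit, fell most. It was at 16.0, 17.0, 16.2 and 17.6 FPKM in NCD-fed and at 10.04, 10.5, 12.1, 11.53 and 11.7 FPKM in HFD-fed WT liver, so that the diets did not overlap. The log2 fold change was −0.54 ± 0.06, with an adjusted p of 0.000418 in limma and a two-sided exact permutation p of 0.0159. Mrpl14 fell from 75.02 ± 4.78 to 56.7 ± 5.54 FPKM (−0.40 ± 0.08, adjusted p = 0.00574 in limma) and Mrps22 from 6.53 ± 0.538 to 4.86 ± 0.563 FPKM (−0.36 ± 0.08). Mrpl45, which holds the ribosome at the inner membrane where its products are inserted, was the member called higher (13.9 ± 0.984 to 16.4 ± 1.11 FPKM, 0.23 ± 0.06, adjusted p = 0.0300 in limma). Its lowest NCD value, 12.4 FPKM, was that of mouse 182. Of 4 adipocyte markers tested in liver 3 were higher on HFD in WT mice, with a summed level of 96.7 to 163 FPKM on HFD and 10.1 to 30.7 on NCD, and their part in the members' changes was not tested.

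In liver of Mlkl Adi-KO mice 2 members were lower on HFD and 0 were higher in limma, against 10.3% and 11.9% of all 13149 genes tested. They were Mrps22 (6.87 ± 1.05 to 4.88 ± 0.592 FPKM, −0.42 ± 0.11, adjusted p = 0.0196 in limma) and Mrps36 (10.03 ± 1.396 to 7.81 ± 0.705 FPKM, −0.32 ± 0.09, adjusted p = 0.0359 in limma). At an unadjusted p under 0.05 there were 16 members. edgeR called 2, Mrps22 and Mrps16, and did not call Mrps36 (adjusted p = 0.0528), while DESeq2 and the TPM scale called 9 each and the fit of all 4 liver groups 12, all of them lower. Mrps22 was thus lower on HFD in liver of both genotypes, and leaving out mouse 199 left 0 members called in Mlkl Adi-KO liver. The median was −0.08 over the members and −0.15 over the chain.

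Between genotypes in liver no member was called. On HFD 0 members were called by limma, edgeR or DESeq2, with 4 at an unadjusted p under 0.05 in limma, against 0.197% and 12.6% of all genes tested. Mrps18b had the largest value (0.27 ± 0.09, adjusted p = 0.255 in limma) and Mrpl16 the lowest (−0.14 ± 0.07). On NCD 0 members were called by these 3 tools and 2 had an unadjusted p under 0.05 in limma, against 0.00758% and 4.35% of all genes. The interaction of genotype with diet in liver was called for 0 members by these 3 tools, with 0 at an unadjusted p under 0.05 in limma, against 0.0151% and 6.12% of all genes. Among its values Mrps27 was highest (0.23 ± 0.13) and Mrps6 lowest (−0.20 ± 0.18).

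Between tissues of NCD-fed WT mice, 41 members were lower in visWAT than in liver and 5 were higher on the deposited scale (limma, adjusted p under 0.05). Of all 14544 genes tested, 34.0% were lower and 31.5% were higher. On the TPM scale the direction turned, with 2 members lower and 13 higher. The visWAT libraries of mice 182 and 183 were also left out, with their liver libraries kept. On the TPM scale this gave 6 lower and 56 higher (median 0.48). With mouse as a replicate block 37 were lower and 5 higher as deposited, and Mrpl19, Mrpl43, Mrpl45 and Mrps22 were no longer called. Relative to the median of all genes, that of the members was −0.32 as deposited and −0.21 on the TPM scale. Without both visWAT libraries it was −0.22 on the TPM scale, so the members lay below the median of all genes there too. The shares of all genes called on the TPM scale are not given here. Of 79 nuclear chain genes 39 were lower and 2 higher as deposited. Without the visWAT libraries of mice 182 and 183, 45 members were lower and 3 higher as deposited. The FPKM of a library summed to 468955 to 549786 in liver and to 227793 to 564718 in visWAT.

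Mrpl14 was lowest in visWAT relative to liver (28.7 ± 4.74 against 75.02 ± 4.78 FPKM, −1.37 ± 0.13), and it was called lower on both scales, as was Mrpl15 (−1.17 ± 0.12). Mrpl1 had a difference of −1.14 ± 0.12. The 5 members that were higher in visWAT were called on both scales. They were Mrps6, Mrps15 (0.61 ± 0.11), Mrps25 (0.39 ± 0.11), Mrpl33 (0.35 ± 0.08) and Mrps26 (0.34 ± 0.11). Without the visWAT libraries of mice 182 and 183, Mrps25 and Mrps26 (adjusted p = 0.0841 and 0.0863 in limma) were not called as deposited. Mrps6 was at 25.2, 21.6, 34.5 and 18.7 FPKM in visWAT and at 4.26, 4.63, 6.61 and 5.26 FPKM in liver of the same mice. The log2 difference was 2.05 ± 0.19, with an adjusted p of 2.7e-05 in limma. Slc5a3, the sodium/myo-inositol cotransporter, lies within the span of Mrps6 on the same strand (chr16:91855210-91884361 within chr16:91855158-91909115, coordinates of the table, mm39). It was chosen after values were seen, and was at 5.48 ± 1.39 FPKM in visWAT and 1.02 ± 0.370 in liver (n = 18 each). How shared reads were counted is not given in the sources used here, and its part in the level of Mrps6 was not tested.

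The diet response itself differed between tissues of WT mice for 12 members (limma interaction, adjusted p under 0.05). The response was lower in visWAT than in liver for 11 and higher for 1, against 18.2% and 21.8% of all 14746 genes tested. On the TPM scale, where the shares of all genes are not given here, the counts turned to 5 higher and 0 lower. With mouse as a replicate block the count was 8 lower and 0 higher, where Mrpl36, Mrpl49, Mrps5 and Mrpl54 were no longer called. Without the visWAT libraries of mice 182 and 183 it was 9 lower and 8 higher as deposited, Mrps6 among the higher. On the TPM scale without these libraries it was 8 lower and 14 higher. Relative to the median of all genes, that of the members was −0.09 as deposited and −0.02 on the TPM scale. Without these libraries it was −0.007 on the TPM scale. Mrps15 had the largest difference (−0.66 ± 0.12, adjusted p = 0.00036 in limma), and its level in liver was flat, with 17.6 ± 1.10 FPKM on NCD and 17.5 ± 1.04 on HFD. Mrpl47 (−0.52 ± 0.12) and Mrps2 (−0.48 ± 0.20, not called) followed. Mrpl54 was the member with the higher response in fat (0.39 ± 0.15, adjusted p = 0.0458 in limma, 0.0927 in edgeR), and Mrps6 had a difference of 0.41 ± 0.20 that was not called. Of the 21 members lower in WT visWAT and the 13 lower in WT liver, 5 were the same (Mrpl2, Mrpl9, Mrpl55, Mrps27 and Mrps31), which is 23.8% of the former and 38.5% of the latter. The matching overlap over all genes is not given here, so this is not a trait shown for the family. On the TPM scale no member was lower in WT visWAT.

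**Figure D4:**
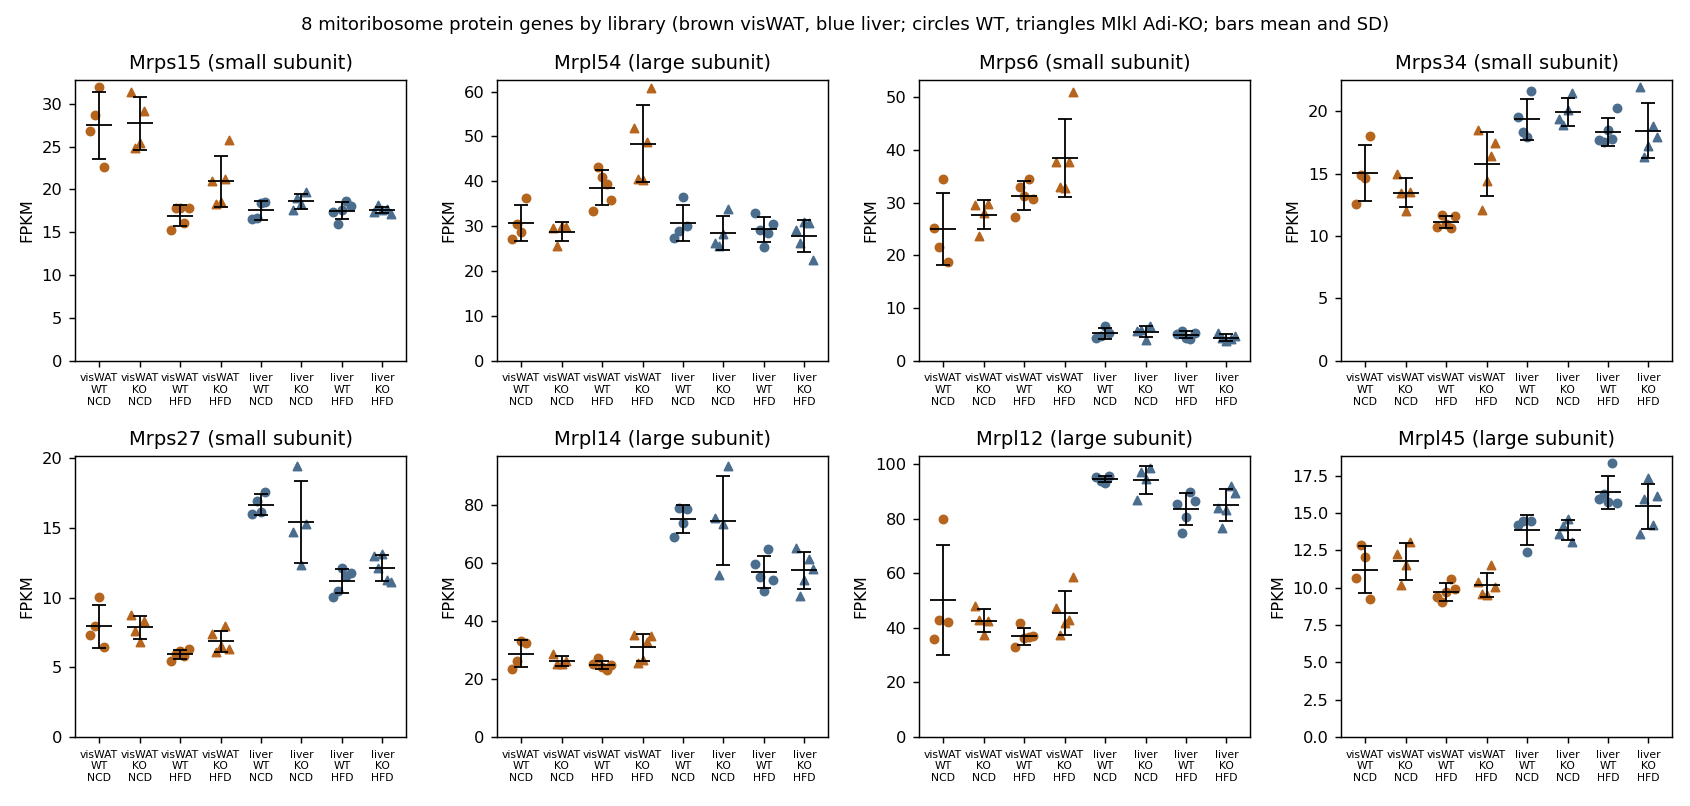
FPKM per library (y axis, from 0) of 8 members in the 8 groups, with mean and SD. Mrps15 is lower on HFD in visWAT and flat near 17.6 FPKM in liver, Mrpl54 rises to 48.4 FPKM in HFD-fed Mlkl Adi-KO visWAT, and Mrps27 falls in WT liver from 16.7 to 11.2 FPKM.

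Genes near Mrps15 and Mrpl54 were read as well, chosen after values were seen. Oscp1 starts 3032 bases downstream of Mrps15 on the same strand, and was at 3.02 ± 1.87, 2.95 ± 0.605, 0.717 ± 0.117 and 1.07 ± 0.360 FPKM in visWAT of NCD-fed WT, NCD-fed Mlkl Adi-KO, HFD-fed WT and HFD-fed Mlkl Adi-KO mice, and at 0.0504 ± 0.0392 in liver. Matk ends 1347 bases from the end of Mrpl54 on the other strand, and in the same order was at 0.388 ± 0.0888, 0.612 ± 0.116, 6.43 ± 1.12 and 4.60 ± 1.99 FPKM, and at 0.122 ± 0.0881 in liver. With diet in visWAT, Oscp1 and Matk had the sign of the member beside them. Between genotypes on HFD the mean of Matk was lower in Mlkl Adi-KO mice, where that of Mrpl54 was higher. Apba3, on the other side of Mrpl54 and on the other strand, was at 12.8 ± 2.64, 10.2 ± 0.187, 11.0 ± 0.479 and 12.2 ± 1.44 FPKM in the same order. The spans of these genes do not overlap those of the members in the table, and their part in the members' values was not tested.

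Members with a special role were followed whatever their values. Mrpl12 was at 94.5 ± 1.19 FPKM in NCD-fed and 83.4 ± 5.86 in HFD-fed WT liver (−0.18 ± 0.06, adjusted p = 0.0483 in limma). In NCD-fed WT visWAT it was at 35.98, 42.8, 79.9 and 42.1 FPKM, the high value again from mouse 182, and its change on HFD was −0.37 ± 0.21 (adjusted p = 0.191 in limma). Mrpl11, at the base of the stalk, was at 9.62 ± 0.780 and 8.28 ± 0.773 FPKM in WT visWAT on NCD and HFD (−0.20 ± 0.08, adjusted p = 0.0931 in limma and 0.0360 in edgeR). Mrps12, at the decoding centre, was at 26.3 ± 5.30 and 21.9 ± 2.72 FPKM in the same groups (−0.24 ± 0.14).

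Mrpl44, a relative of ribonuclease III, was at 14.7 ± 3.04 and 11.51 ± 0.815 FPKM in these groups (−0.31 ± 0.12, adjusted p = 0.0765 in limma and 0.0363 in edgeR). Mrpl58, a relative of peptide release factors that frees stalled chains, had a change of −0.12 ± 0.10. Mrps30 fell in WT visWAT from 3.08 ± 0.291 to 2.21 ± 0.160 FPKM (−0.35 ± 0.07, adjusted p = 0.00336 in limma) and in Mlkl Adi-KO visWAT from 3.32 ± 0.277 to 2.52 ± 0.385 (−0.30 ± 0.09). Mrps18a was at 7.14, 8.31, 11.0 and 17.2 FPKM in NCD-fed WT visWAT, the highest in mouse 183, and at 7.52 ± 0.459 on HFD. Mrps36 had a change of −0.09 ± 0.13 in WT visWAT and was, as given above, lower on HFD in Mlkl Adi-KO liver in limma but not in edgeR.

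The rest of the mitochondrial translation machinery was read from lists of its own. In WT visWAT on HFD, 0 of 13 mitochondrial translation factors were higher and 3 lower, with a median of −0.28. The lowest were Tsfm, an elongation factor (7.31 to 5.02 FPKM, −0.46 ± 0.10, adjusted p = 0.0053 in limma), and Taco1, an activator of Cox1 translation (−0.45 ± 0.19, adjusted p = 0.0902 in limma). The highest were Mtrf1 and Mtif3, both at −0.13. Of 20 mitochondrial aminoacyl-tRNA synthetases 10 were lower and 0 higher, and of 20 genes of mitochondrial transcription and RNA 8 and 0. Of all genes tested in this comparison 15.8% were lower and 21.9% higher.

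Mitoribosome assembly factors were mixed, with 10 of 25 lower and 3 higher. Trub2, a pseudouridine synthase, fell from 9.37 ± 6.60 to 2.98 ± 0.250 FPKM (−1.20 ± 0.31, adjusted p = 0.0148 in limma), and Mterf3 fell by 0.48 on the log2 scale. The methyltransferase Mrm1 rose by 0.37 ± 0.07 and the small subunit assembly factor Rbfa by 0.36 ± 0.09. Of 5 mitoribosome proteins with other names 0 were called in limma. Among 10 regulators Pparg was lowest (57.2 ± 15.2 to 31.4 ± 2.12 FPKM, −0.81 ± 0.17) and Pprc1, a relative of PGC-1, highest (0.39 ± 0.09), while Nrf1 was at 0.03 ± 0.08. All these counts are on the deposited scale. On the TPM scale, where the median of all genes moved up, these lists are not given here. When mice 182 and 183 were left out, 7 translation factors, 9 synthetases, 9 genes of transcription and RNA and 11 assembly factors were lower and 0, 0, 0 and 3 higher. Of all 14015 genes tested in that fit, 3394 were lower and 3901 higher. The NCD values of Trub2 were 4.90, 8.23, 19.01 and 5.32 FPKM, the highest in mouse 182, and its change without both mice was −0.89 ± 0.16.

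The 13 mitochondrially encoded subunits had a median of −1.28 in WT visWAT on HFD, with 9 lower, and −0.74 in Mlkl Adi-KO visWAT, with 8 lower. Cytosolic ribosome proteins had a median of 0.42 in WT visWAT, with 21 of 77 higher and 1 lower, and 0.49 in Mlkl Adi-KO visWAT, with 72 of 77 higher and 0 lower. In WT liver 69 of 78 cytosolic ribosome proteins were lower on HFD, with a median of −0.36, where the median of the members was −0.06. These counts too are on the deposited scale, and the shares of all genes in these comparisons are given above. With mice 182 and 183 left out, 12 mitochondrially encoded subunits were lower in WT visWAT (median −1.33) and 59 of 77 cytosolic ribosome proteins were higher (median 0.45).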

How the data were processed

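Libraries of polyadenylated RNA from visWAT and liver of 18 mice were aligned to mm39 by the authors with HISAT2 and counted per gene with featureCounts 1.5.0-p3. The strand setting, annotation release and treatment of reads on overlapping genes are not given in the sources used here. The deposited FPKM cover all genes and were computed by the authors with a library size of their own. Deposited counts stand only in the authors' tables of genotype comparisons, whose fold changes, test values and pathway enrichments were not used. Divided by the gene-assigned reads, this size came to 1.01–1.40 for fat libraries and 0.737–0.812 for liver libraries. FPKM gave whole reads for 100% of values at a tolerance of 0.01 reads. The tables also held 72 per-sample columns that were not used.

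Log2(FPKM + 1) was tested with limma 3.58.1 (trend, R 4.3.3) in the 2 groups compared, or 4 for interactions, over genes with a mean of at least 0.5 FPKM, with Benjamini-Hochberg adjustment over all genes and a threshold of 0.05. Fold changes are on that scale and understate changes of low genes. The tests of edgeR 4.0.16 and DESeq2 1.42.0 on reads recovered from FPKM, other pseudocounts and filters, the TPM scale, and leaving out each mouse were alternatives. Scripts were tested on simulated data. Groups came from the sample labels, with 4 or 5 mice each, and counting precision follows from the depth given in the report. Fat and liver of 1 mouse are paired by the animal, per the labels. Same-mouse deviations had correlations of −0.0516 to 0.223, and the replicate block gave 42 called members between tissues and 8 for tissue by diet.

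Members and gene lists were chosen with earlier results of these data known. Named members were up to 3 from each end of a comparison, all called ones where few were called, those against the median, the highest 5 and lowest 3 in each tissue, and members of special role. Of the other lists the highest and lowest were named.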

Additional observations from a re-analysis of the deposited data

Results flagged for a closer look

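Single libraries stood apart from their group in 7 of 96 groups of values tested with Dixon's criterion, where about 1 in 20 is flagged by chance. In visWAT of NCD-fed WT mice, mouse 182 had 7.34 FPKM of Mrps22 (next value 3.36) and 79.9 FPKM of Mrpl12 (next value 42.8). In visWAT of NCD-fed Mlkl Adi-KO mice, mouse 179 had 25.6 FPKM of Mrpl54 (next value 29.5). In visWAT of HFD-fed Mlkl Adi-KO mice, mouse 157 had 50.9 FPKM of Mrps6 (next value 37.8) and 4.93 FPKM of Mrps22 (next value 3.77). For Mrpl45 in liver, mouse 182 had 12.4 FPKM in the NCD-fed WT group (next value 14.2) and mouse 162 had 18.4 FPKM in the HFD-fed WT group (next value 16.3).

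The diet response of WT mice differed between visWAT and liver for 12 members by the interaction in limma. The difference of the log2 fold changes, visWAT minus liver, was −0.41 for Mrpl3, −0.39 for Mrpl36, −0.36 for Mrpl37, −0.41 for Mrpl45, −0.52 for Mrpl47 and −0.47 for Mrpl49. It was −0.66 for Mrps15, −0.32 for Mrps30, −0.32 for Mrps34, −0.47 for Mrps35 and −0.34 for Mrps5, and 0.39 for Mrpl54. These are values on the deposited scale. Fat and liver came from the same mice, and with mouse as a replicate block, which left 8 members called, Mrpl36, Mrpl49, Mrps5 and Mrpl54 were not called.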

How the results depend on the processing

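Where at least 1 member was called as reported, 88 of 110 alternative counts kept their direction and stayed within 1.5 times. Where 0 were called, few genes were called at all, so that counts of 0 under the alternatives say little. Of 29 alternative medians 19 moved by less than the spread and kept their sign. The TPM scale moved most: the called members and median became 1 and 0.242 for diet in WT visWAT, 15 and 0.250 between tissues, and 5 and 0.316 for tissue by diet. It gave medians of 0.255 for genotype on NCD in visWAT, −0.0478 for genotype on HFD in liver and −0.170 for genotype by diet in visWAT. The visWAT libraries of mice 182 and 183 were then left out as well (chosen after seeing the data). Called members and median were 23 (14 higher, 9 lower) and 0.0367 for diet in WT visWAT. Between tissues they were 62 (56 higher, 6 lower) and 0.482, and for tissue by diet 22 (14 higher, 8 lower) and 0.0745. Relative to the median of all genes these medians were −0.0649, −0.218 and −0.00708 in the same order. The median was 0.0456 for genotype by diet in visWAT. Between tissues, Mrpl45 (0.32) and Mrpl58 (0.21) turned on the TPM scale. Without both visWAT libraries, Mrpl44 (0.60), Mrpl45 (0.72), Mrpl58 (0.36) and Mrps12 (0.13) turned on that scale. For tissue by diet Mrpl45 was at 0.0081. In Mlkl Adi-KO liver the diet count was 1 without a filter, 9 on the TPM scale, 9 in DESeq2 and 12 with all 4 liver groups. DESeq2 called 2 members between genotypes on HFD in visWAT. The cause was not tested. Leaving out each mouse gave 14 to 26 called members for diet in WT visWAT (14 without mouse 154, 161, 162 or 164), 10 to 25 in Mlkl Adi-KO visWAT (10 without mouse 199, and 12, mostly lower, without mouse 197), and 0 to 5 in Mlkl Adi-KO liver (0 without mouse 199). The replicate block gave 42 called members between tissues and 8 for tissue by diet, and turned no direction among the counts and named members. It ended the calls of Mrpl19, Mrpl43, Mrpl45 and Mrps22 between tissues and of Mrpl36, Mrpl49, Mrps5 and Mrpl54 for tissue by diet. Groups of 4 or 5 mice limit what could be called.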
